A study of Mus musculus with 20 samples.

Results

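*Ccrn4l* (ENSMUSG00000023087, named *Noct* in the GENCODE vM21 annotation) was the protein coding gene with the most HuD signal in a crosslinking map of HuD on RNA from mouse NSC-34 cells, and it is described here alone. It was chosen by its summed number of covering reads, so its coverage, deletions and number of windows are given as a description and carry no test. It is 1 of 1304 protein coding genes and of 1435 genes of all types with a listed HuD window, and it held 45 of the 2868 unique windows. NSC-34 is a hybrid line of mouse neuroblastoma and spinal cord motor neuron cells. The study used a stable NSC-34 line with a tetracycline-inducible, His-HA tagged human HuD (Trex-HuD), and a Trex NSC-34 line without the tagged HuD as control. For the crosslinking experiment (CRAC), in which protein-bound RNA is purified through the tag and sequenced, both lines received 10 µg/ml tetracycline for 24 h by the labels, with 3 replicates each. The study's text names another dose and time for this experiment in one place, and the labels were followed. Total RNA (RNA-Seq) and RNA from polysomes (POL-Seq) were sequenced in 2 libraries per line, and mRNA 3′ ends in 3 per line, with Trex-HuD cells induced at 2 µg/ml for 48 h. For these 3 assays the labels do not give the treatment of the control cells. HuD was expressed from a transgene in all induced cells, and every library analysed here comes from NSC-34 cells.

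HuD is an ELAV family protein of neurons that binds short U-rich elements, mostly in 3′ untranslated regions, and promotes the stability and translation of its targets. Nocturnin, the product of *Ccrn4l*, belongs to the CCR4-type exonuclease-endonuclease-phosphatase (EEP) family. It was first described as a deadenylase under circadian control and later as a phosphatase that converts NADP(H) to NAD(H).

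The sequences below are the windows that carried the signal, from GRCm38 chromosome 3, plus strand, written 5′ to 3′, with the listed window in capitals and the neighbouring bases in lower case. The most covered windows come first and lay in the densest stretch.

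AAUUUAC, 1323 covering reads, chr3:51244155-51244183: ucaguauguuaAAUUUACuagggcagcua
UAUUUCC, 918 covering reads, chr3:51244135-51244163: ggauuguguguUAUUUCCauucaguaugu
GAUUAAU, 791 covering reads, chr3:51244346-51244374: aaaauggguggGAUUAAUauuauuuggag
AGUUUCC, 769 covering reads, chr3:51244116-51244144: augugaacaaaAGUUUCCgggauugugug
UCUUUAA, 668 covering reads, chr3:51244328-51244356: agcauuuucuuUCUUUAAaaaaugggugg

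The windows with the most deletions, the mark that crosslinking leaves at the contacted base, were others.

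UCUUUUA, 68 deletions, chr3:51242727-51242755: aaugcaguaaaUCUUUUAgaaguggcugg
UCUUUUU, 37 deletions, chr3:51244186-51244214: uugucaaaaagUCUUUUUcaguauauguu
AGUUUGC, 31 deletions, chr3:51242471-51242499: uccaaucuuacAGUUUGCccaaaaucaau
CCUUUUC, 26 deletions, chr3:51242423-51242451: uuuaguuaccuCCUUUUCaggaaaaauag
AAUUUGU, 24 deletions, chr3:51244172-51244200: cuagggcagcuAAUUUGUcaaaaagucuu

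The first and the last window by position had the same sequence with its neighbours.

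first window, 99 covering reads, chr3:51240282-51240310: gcuucuugcucUCUUUUCcugaagaugua
last window, 94 covering reads, chr3:51245197-51245225: gcuucuugcucUCUUUUCcugaagaugua

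The 45 *Ccrn4l* windows summed to 14699 covering reads and 466 deletions in HuD cells, against 96 covering reads and 0 deletions in control cells. This was 7.81% of the coverage on protein coding genes (95% Wilson interval 7.69% to 7.93%, counting error only), from 1.73% of their windows and 2.45% of their deletions. Neighbouring windows can hold the same reads, so a sum over windows counts some reads more than once. Replicates were pooled by the authors, so no spread over replicates could be given for any CRAC value, and the depth of the CRAC libraries is not in the table. The next protein coding genes by coverage were *Eef1a1*, a translation elongation factor, with 11322 reads in 12 windows, *Btf3* with 9795 in 12 and *Eif4g2*, an initiation factor relative, with 6023 in 11. By number of windows the next were *Ccni* with 21, *Cd164* with 18, and *Lrrc58* and *Ptges3* with 17 each. *Ccrn4l* stood first by sum and by number, but its most covered window, with 1323 reads, put it in place 4 when each gene was ranked by its highest window.

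**Figure D1:**
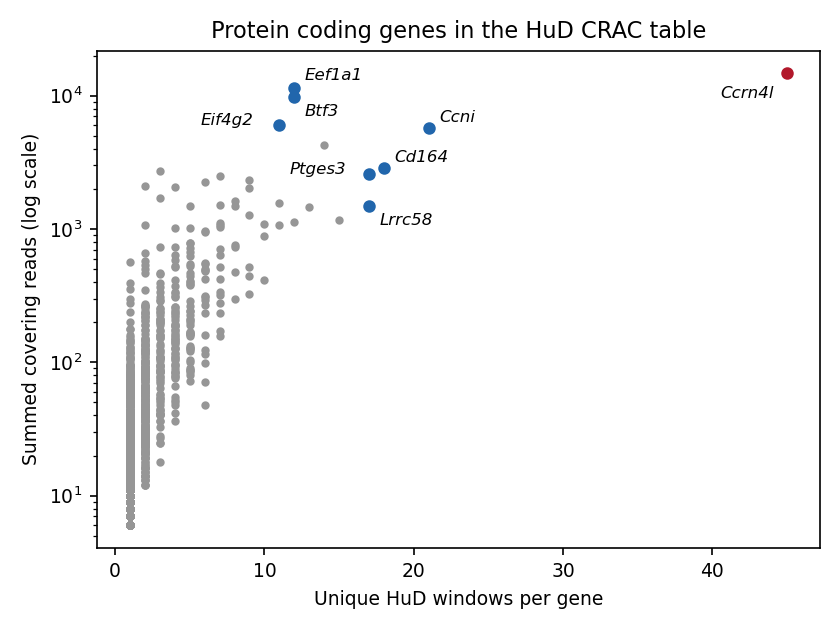
Summed HuD covering reads (vertical axis, log scale) against the number of unique windows (horizontal axis) for the 1304 protein coding genes, 1 point per gene. *Ccrn4l* (red) sits at 45 windows and 14699 reads, far to the right of *Ccni* with 21 windows, while *Eef1a1* reached 11322 reads with 12 windows.

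Relative to RNA level, *Ccrn4l* was not first. Its coverage divided by its read count scaled to library size (CPM) in total RNA of control cells was 35.1, which was place 18 of the 1282 protein coding genes with both values. The median of these genes was 0.288. The same ratio was 16.0 for *Btf3*, 2.40 for *Eif4g2* and 1.83 for *Eef1a1*. Of the *Ccrn4l* coverage, 95.4% lay at windows whose sequence is also listed for other genes (below). The RNA-Seq gene counts leave out reads with several placements, and how such reads entered the coverage is not known. Both parts of the ratio may thus follow unlike counting rules, and the effect on its value and place was not tested.

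All 45 windows were listed as 5′ UTR of 1 transcript, Ccrn4l-002 (ENSMUST00000144826), and all 45 lay in the first exon of that transcript. This exon spans chr3:51240206-51248074 and is 7869 nt long. The coding sequence of Ccrn4l-002 starts downstream of every window, at position 51247813. Another transcript, Ccrn4l-001 (ENSMUST00000023849), starts further upstream and splices over this sequence. Thus 0 windows lay in an exon of Ccrn4l-001 and all 45 lay in the first intron of it. Noct-203 of GENCODE vM21 (2992 nt) splices over this sequence too. The shortest transcript, Noct-204, has an exon inside it, at 51243408-51243852, which held 0 windows. No window was listed in the coding sequence or the 3′ UTR of *Ccrn4l*.

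As listed, *Ccrn4l* therefore held most of the 5′ UTR coverage on protein coding genes. Of its 14699 reads, 14017 were at windows whose sequence is also listed for genes that are not protein coding (below). Which of these places the reads came from was not tested. Of the 71 unique 5′ UTR windows on protein coding genes, 45 were on *Ccrn4l* (63.4%), and of their coverage 93.5%. The remaining 26 windows were spread over 20 genes with at most 3 on any of them. These shares are of the 179142 reads at protein coding windows with a listed region, where the 7.81% above was of 188244 reads at all protein coding windows. With *Ccrn4l* counted, the 5′ UTR took 8.78% of this coverage and the 3′ UTR 85.88%. Without this gene the values were 0.62% and 93.56%. By number of windows the 3′ UTR share moved less, from 92.13% to 93.77%.

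The windows were not spread evenly over the exon. They fell into a run of 31 windows from 51241572 to 51243157, a dense run of 12 windows in 259 nt from 51244127 to 51244385, and the single first and last windows, with windowless gaps of 1272, 969 and 822 nt between them. The run of 31 held 6475 reads (44.1%) and 321 deletions, with a median of 127 reads per window and a range from 22 to 612. The dense run held more reads in fewer windows, with 8031 reads (54.6%), a median of 592.5 and a range from 345 to 1323, but only 137 deletions. Deletions per 1000 covering reads were thus 49.6 in the run of 31 and 17.1 in the dense run. The median gap between neighbouring windows was 21.5 nt, and 27 of the 44 gaps were at most 50 nt. Joining windows at most 50 nt apart gave 18 clusters, of which 12 held at least 2 windows.

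**Figure D2:**
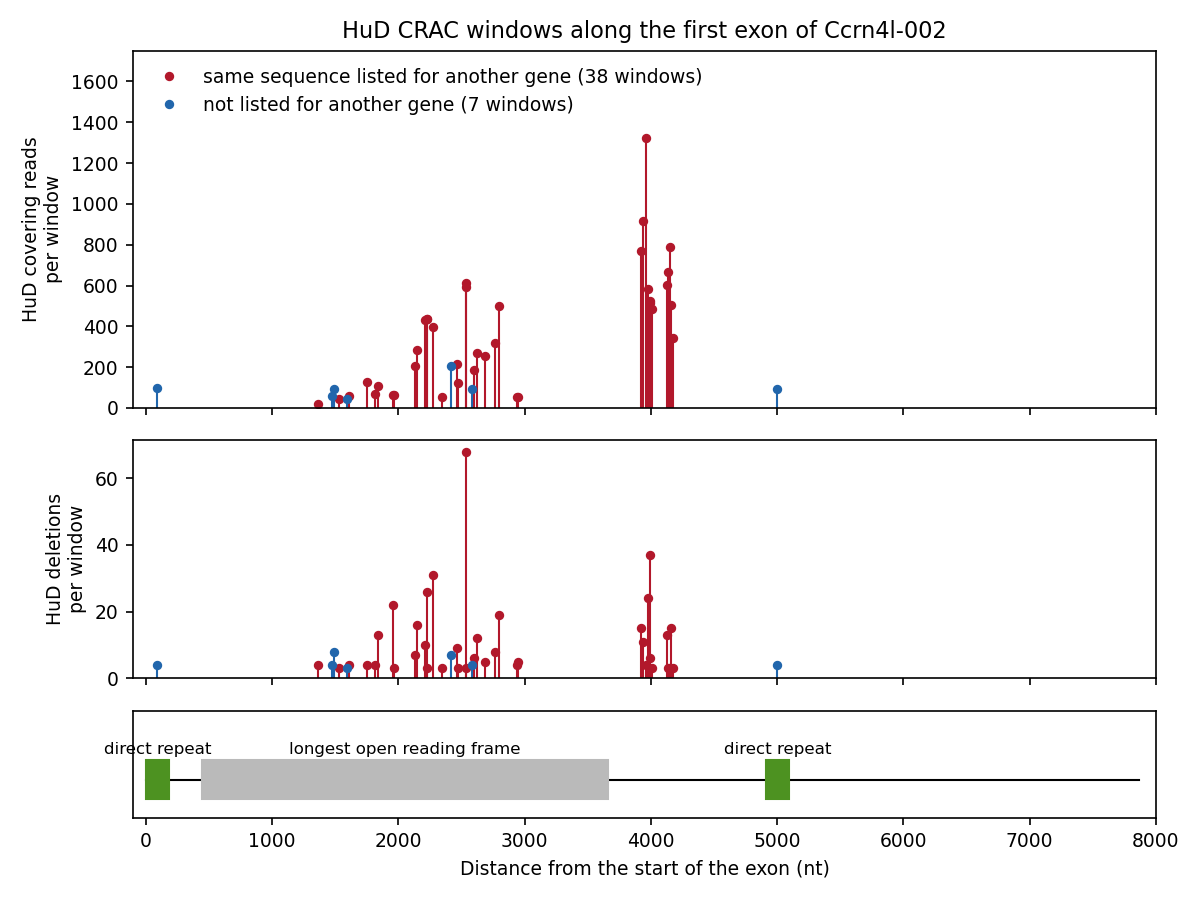
HuD covering reads (top) and deletions (middle) per window against the distance in nt from the start of the first exon of Ccrn4l-002, 1 stem per window, with the sequence layout of the exon (bottom). Red stems mark the 38 windows whose sequence is also listed for another gene and blue stems the other 7. The tallest stem, 1323 reads, stands in the dense run of 12 windows, while the highest deletion count, 68, stands in the run of 31 inside the open reading frame.

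The exon had a layout of its own. A stretch of 181 nt at the very start of the exon (51240206-51240386) occurred again, identical at 181 of 181 positions, at 51245121-51245301. Between both copies lay an open reading frame of 1070 codons (51240651-51243863), whose translation held 1 copy of the short active-site box of reverse transcriptases. Identical direct repeats at both ends of a coding stretch with reverse transcriptase are the known plan of retroviruses and their endogenous relatives. The annotation used here names no repeat elements, so the sequence was not assigned to a family. Of the 45 windows, 31 lay in the open reading frame, 12 between its end and the second repeat, and 2, the first and the last window, in the repeats themselves. No window lay in the rest of the exon after the second repeat, the part next to the start codon of Ccrn4l-002.

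Most *Ccrn4l* windows had a counterpart elsewhere in the table. For 38 of the 45 windows, the window with 7 nt on each side was listed with the same letters for at least 1 other gene. Those 38 windows carried 14017 reads, or 95.4% of the *Ccrn4l* coverage. Among windows of the other protein coding genes, 103 of 2498 (4.12%) had such a counterpart. The counterparts were 58 windows on 5 genes, none of them protein coding: RP24-390N7.1 and Gm38279 and Gm37917, listed as unconfirmed transcripts (TEC), Gm29084, listed as antisense, and Gm29562, a lincRNA. They lay on chromosomes 5, 1 and 9. Of the 45 windows, 19 had a counterpart in 1 other gene, 18 in 2 and 1 in 3.

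The read numbers at these counterparts were close to those of *Ccrn4l*. On Gm29084 (chromosome 1, minus strand, 62534968-62535226), all 12 listed windows matched the dense run of *Ccrn4l*. Each of the 12 had exactly 8 covering reads fewer than its *Ccrn4l* counterpart, 7935 against 8031 in sum, and the same number of deletions and of control reads. The most covered window, AAUUUAC, had 1323 reads on *Ccrn4l*, 1315 on Gm29084 and 1272 on RP24-390N7.1, with 4 deletions at each. On RP24-390N7.1 (chromosome 5, minus strand, 60804541-60807185), 37 of 42 windows matched and held 12916 reads against 13995. The ratio of both coverages ran from 0.402 to 1.57 with a median of 0.965. Deletions were equal at 26 of the 37 windows and control reads at 33. The window with the most deletions, UCUUUUA, had 593 reads and 68 deletions on *Ccrn4l* and 597 reads and 72 deletions on RP24-390N7.1.

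The remaining counterparts were fewer. Gm38279 matched at 5 of 7 windows with a median coverage ratio of 0.857, Gm37917 at 3 of 5 with 0.591, and Gm29562 at its 1 window, with 289 reads against 504. Aligned to the exon over its best stretch, RP24-390N7.1 was 97.6% identical over 3984 nt, Gm29084 99.7% over 1452 nt and Gm38279 97.8% over 1134 nt. By the study's methods the CRAC reads were aligned with default settings of TopHat2. How reads with several placements then entered the coverage is not spelled out in the sources used here, and their part in these values was not tested.

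**Figure D3:**
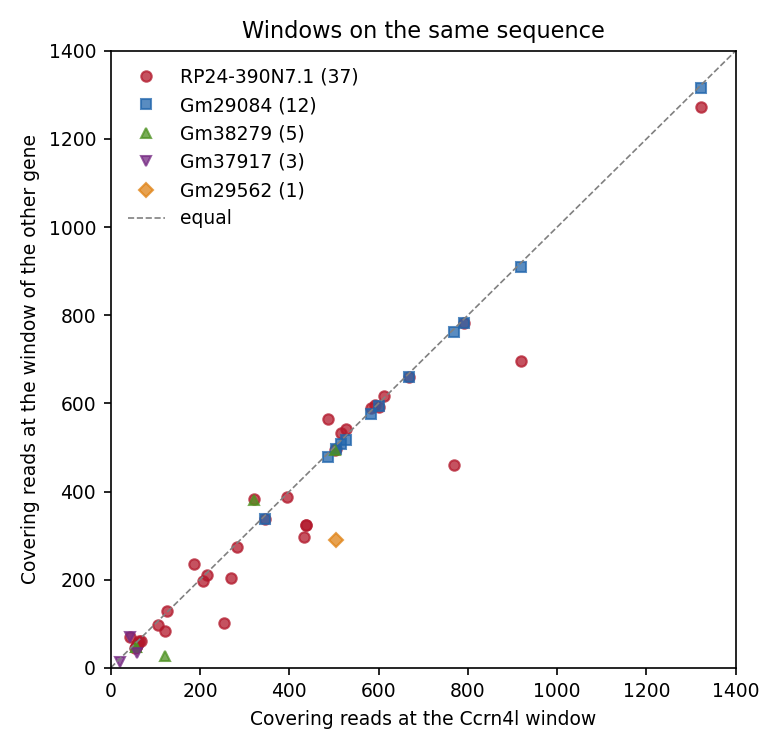
Covering reads at each *Ccrn4l* window (horizontal axis) against those at the window of another gene on the same sequence (vertical axis), 1 point per pair, with the number of pairs per gene in brackets and the line of equal values dashed. All 12 Gm29084 points sit 8 reads under the line, and the RP24-390N7.1 points lie along it with a few far below.

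Only 7 *Ccrn4l* windows had no listed counterpart in another gene, and they were among the less covered. This counts HuD windows of other genes and not their sequence alone. By sequence with 7 nt on each side, at least 43 of the 45 windows occurred in a transcript of another annotated gene on either strand. In sense these were at least 41. The 7 windows without a listed counterpart held 682 reads and 34 deletions, from 45 to 204 reads per window with a median of 92, and 0 control reads. The 38 others had a median of 332.5 reads. The first and the last window are 2 of the 7 and match each other, which leaves 5 windows, with 489 reads and 26 deletions, that match no other listed window. Counting only windows without a listed counterpart in every gene put *Ccrn4l* in place 42 of 1254 protein coding genes. No other listed gene had a window within 1000 nt of a *Ccrn4l* window, and no *Ccrn4l* window is listed at the same position for another gene. The next gene downstream, *Elf2*, lies 1076 nt after the end of *Ccrn4l* on the opposite strand and had 0 windows.

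Most *Ccrn4l* windows held the UUU core of HuD windows. Every listed window, of any gene, had to pass the authors' score threshold. The core and the score were thus largely set by that filter, and their likeness to other genes is no separate evidence of binding. Of its 39 windows of 7 nt, 36 (92.3%) had UUU at the centre, against 97.3% of the windows of other protein coding genes. The base before UUU was C in 19 windows, A in 9 and G in 8. C thus took 52.8%, against 40.7% in the other genes. The median score against the authors' binding matrix was 0.89, against 0.90, and UCUUUUU at 51244197 reached 1.00.

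The amount of signal per window was higher. The median *Ccrn4l* window had 254 covering reads against 25 in other protein coding genes, but both had a median of 5 deletions. Deletions per 1000 covering reads were 31.7 on *Ccrn4l* and 106.7 on the others. Among the next genes by coverage they were 31.9 on *Eef1a1*, 42.6 on *Btf3* and 73.2 on *Eif4g2*. A listed window needed at least 3 deletions, so windows with few reads have a high rate by this filter alone, and 106.7 is not a like comparison. The authors' combined p-value was under 0.05 at 28 *Ccrn4l* windows (62.2%, against 20.1%). Control reads were present at 16 of the 45 windows (35.6%, against 3.1%), and the highest number was 19, at UAUUUGG (51244366) and ACUUUGC (51244379), next to 504 and 345 HuD reads. These differences are part of what chose the gene and were not tested.

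The RNA-Seq and 3′ end libraries were not used to choose *Ccrn4l* and allow tests. Totals were 21296012 to 36284728 counts in the 8 RNA-Seq and POL-Seq libraries and 12941885 to 15687502 in the 6 3′ end libraries. *Elavl4*, the gene of HuD, had 78.3 and 97.4 CPM in total RNA of control cells and 236.6 and 211.7 in Trex-HuD cells, a log2 change of 1.35 ± 0.15 (SE; edgeR quasi-likelihood test, adjusted p = 0.0866). It had the smallest p-value of all genes in total and in polysomal RNA. At its 3′ ends, which tag the mouse gene and need not tag the transgene, it differed by -0.49 (edgeR, adjusted p = 0.925), and with the replicate number as a block by -0.47, which passed as lower (adjusted p = 0.0269). Motor neuron markers were present in control cells, 8 of 10 at 1 CPM or more with *Chat* under 1 CPM and *Mnx1* not in the table, while 0 of 3 astrocyte markers reached 1 CPM and 0 of 3 microglia markers were in the table.

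*Ccrn4l* was well expressed. In total RNA it had 12999 and 14101 counts in control cells and 12050 and 14829 in Trex-HuD cells, which is 433.4 and 403.1 CPM against 409.6 and 444.1 CPM. The groups overlapped. In bulk RNA, fewer expressing cells and less RNA per cell cannot be told apart. In polysomal RNA it had 12207 and 7996 counts in control cells and 13643 and 12488 in Trex-HuD cells, or 371.0 and 384.6 CPM against 367.0 and 390.2 CPM, and these groups overlapped too. The mean of both control libraries of total RNA, 418 ± 21.5 CPM (SD, n = 2), was place 302 of 14906 genes. Divided by the 10658 nt of all its exons this was 39.2 ± 2.0 FPKM, place 1566 of 14842 genes. The level per length depends on the transcript, being 137 FPKM if all counts came from Ccrn4l-001 (3059 nt) and 42.7 if all came from Ccrn4l-002 (9797 nt). The counts are summed over the gene, so reads of the exon with the HuD windows and reads of the shared coding exons cannot be told apart.

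A difference with HuD induction was not detectable at *Ccrn4l*. Between Trex-HuD and control cells its log2 difference was 0.029 ± 0.088 (SE) in total RNA, with a 95% interval of -0.17 to 0.23 (edgeR quasi-likelihood test, adjusted p = 1). In polysomal RNA it was 0.003 ± 0.088, with an interval of -0.20 to 0.20 (adjusted p = 0.999). The difference in translation efficiency (TE), tested as the change in polysomal minus the change in total RNA, was -0.03 ± 0.13, with an interval of -0.31 to 0.26 (adjusted p = 1). As folds, the intervals ran from 0.889 to 1.17 in total RNA and from 0.873 to 1.15 in polysomal RNA.

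Few genes passed the same tests anywhere. In total RNA, polysomal RNA and TE, 0 of 14906 genes (0%) had an adjusted p under 0.05 by edgeR, against 1, 3 and 0 by DESeq2. At an unadjusted p under 0.05, 1.78% of genes were higher and 0.865% lower in total RNA, 2.29% and 1.89% in polysomal RNA, and 0.409% and 0.570% in TE. *Ccrn4l* was in none of these groups.

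In control cells *Ccrn4l* was slightly less represented on polysomes than in total RNA. Its ratio of polysomal to total CPM was 0.856 and 0.954 at equal library numbers, and in Trex-HuD cells 0.896 and 0.879. Both polysomal control libraries were below both total control libraries, as was so for 20.1% of all genes. The log2 difference of -0.15 ± 0.09 (SE), with an interval of -0.35 to 0.05, did not pass (edgeR quasi-likelihood test, adjusted p = 0.521). In this comparison 26 of 14906 genes (0.174%) were lower at an adjusted p under 0.05 and 0 were higher, with the replicate number as a block 41 and 0, and at an unadjusted p under 0.05 6.25% were lower and 4.45% higher.

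**Figure D4:**
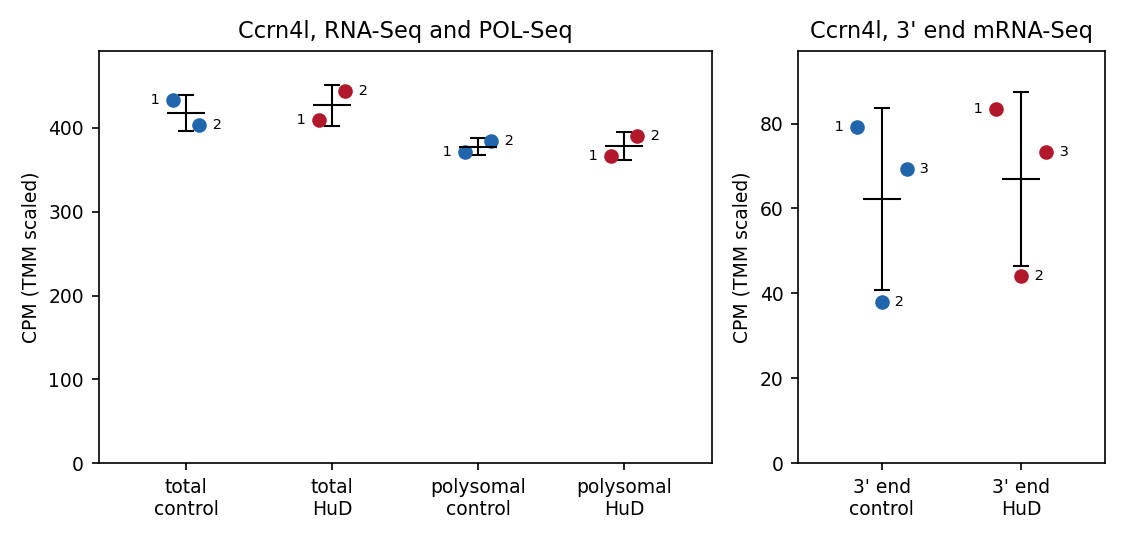
*Ccrn4l* CPM (TMM scaled) in every library by group, control in blue and Trex-HuD in red, with replicate numbers beside the points, bars for the mean and error bars for the SD (n = 2 in the left panel, n = 3 in the right). The total RNA points lie between 403.1 and 444.1 CPM and the polysomal points between 367.0 and 390.2, and in the 3′ end panel number 2 is the low point of both groups.

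The mRNA 3′ end table listed 1 site for *Ccrn4l*, at 51251624 on chromosome 3, 20 nt before the end of the gene, under the transcript Ccrn4l-002. No use of alternative 3′ ends could be tested. The site had 1251, 521 and 1091 counts in control cells and 1120, 641 and 1098 in Trex-HuD cells, or 79.2, 38.1 and 69.4 CPM against 83.5, 44.1 and 73.3 CPM. The library numbered 2 was the low one in both groups, and the groups overlapped. The log2 difference was 0.11 ± 0.30 (SE), with an interval of -0.56 to 0.77 (edgeR, adjusted p = 0.997). With the replicate number as a block it was 0.12 ± 0.09 (SE; edgeR, adjusted p = 0.512). Each Trex-HuD library was above the control library of its number, by 0.08, 0.21 and 0.08 on the log2 scale. Across all 9621 genes, 2 were higher (0.0208%) and 3 lower (0.0312%) at an adjusted p under 0.05, and with the block 106 and 123. At an unadjusted p under 0.05 these shares were 2.89% and 2.97%.

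*Ccrn4l* was more abundant by whole-transcript counts than by 3′ ends. Its CPM in total RNA over its CPM at 3′ ends was 6.73 in control cells, against a median of 2.69 over 5763 protein coding genes with 1 listed site, and 75.9% of those genes had a lower ratio. Longer mRNAs give more RNA-Seq reads per molecule, and the median was 4.13 among the 1122 such genes with 7000 to 15000 nt of exons, of which 66.8% had a lower ratio. Among the 1826 such genes with 2000 to 4000 nt of exons, the median was 2.27 and 79.8% had a lower ratio. The value was thus above the middle of both sets and inside the spread of the long genes. Which set is the like one depends on the transcript, and the counts do not tell the transcripts apart.

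Among the 5 genes with counterpart windows, Gm29084 and Gm38279 had few counts in RNA-Seq. Gm29084, with 7935 HuD covering reads, had 24 and 15 counts in total RNA of control cells and 14 and 17 in Trex-HuD cells. Gm38279, with 1387 covering reads, had 15 and 27 and then 23 and 31. At the 12 windows that both share, *Ccrn4l* and Gm29084 had nearly equal CRAC coverage. *Ccrn4l* had 12999 and 14101 counts in the same control libraries, but over the whole gene, with exons outside the shared sequence. These counts thus do not measure RNA of the shared stretch. STAR gene counts leave out reads with more than 1 placement. RP24-390N7.1, Gm37917 and Gm29562 have no row in the RNA-Seq table used here, and none of the 5 has one in the 3′ end table.

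Within the EEP family, *Ccrn4l* and *Cnot6* were the 2 members with HuD windows and the 2 with the highest level per length. The 2 were 33.3% of the 6 members, beside 9.9% of all protein coding genes tested. *Ccrn4l* was chosen by its HuD coverage, so its part of this count was fixed beforehand, and the share was not tested. *Cnot6*, a catalytic deadenylase subunit of the CCR4-NOT complex, had 8 windows, all in the 3′ UTR, with 738 covering reads, 65 deletions and 0 control reads, and held place 42 by coverage. *Cnot6l*, its close relative in the same complex, *Pde12*, a mitochondrial phosphodiesterase that removes poly(A), and *Angel1* and *Angel2* had none. Per length of exon in the total RNA of both control libraries, *Cnot6* was highest with 60.2 ± 4.6 FPKM (SD, n = 2), followed by *Ccrn4l* with 39.2 ± 2.0 and *Angel2* with 19.9 ± 0.31. *Pde12* with 5.31 ± 0.56 and *Cnot6l* with 4.98 ± 0.62 did not differ beyond their spread, and *Angel1* was lowest with 3.21 ± 0.28. The order of the first 2 depends on the length used, as *Ccrn4l* had 137 FPKM by the length of Ccrn4l-001. Before division by length, *Ccrn4l* had 418 ± 21.5 CPM and *Cnot6* 398 ± 30.3 (SD, n = 2).

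None of the 6 EEP genes passed an adjusted p of 0.05 in any of the 5 comparisons. The median log2 difference of the 6 between Trex-HuD and control cells was -0.06 in total RNA, -0.04 in polysomal RNA and -0.16 at 3′ ends, against 0.00, -0.01 and 0.00 over all genes tested. *Cnot6* had the only unadjusted p under 0.05, at its 3′ ends, with 158.1, 154.0 and 151.9 CPM in control cells and 124.0, 137.1 and 120.2 in Trex-HuD cells. Its groups did not overlap there, as for 5.81% of genes that were lower and 6.23% that were higher. The difference was -0.28 ± 0.11 (SE; edgeR, adjusted p = 0.835). In total and polysomal RNA *Cnot6* gave -0.16 and -0.17 with adjusted p-values of 1 and 0.969.

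**Figure D5:**
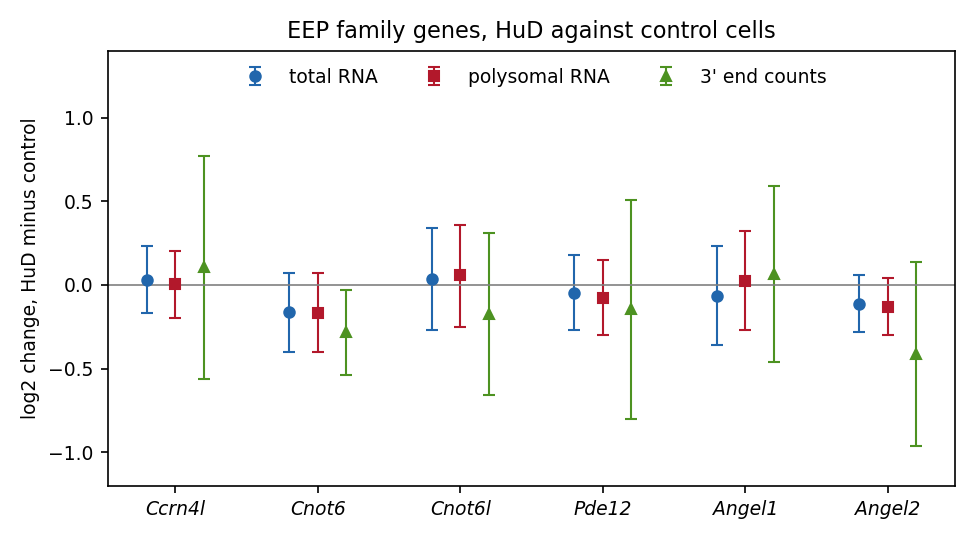
Log2 difference between Trex-HuD and control cells (vertical axis) for the 6 EEP family genes in total RNA, polysomal RNA and 3′ end counts, with 95% intervals from the edgeR fits without a block. The *Ccrn4l* points lie at 0.03, 0.00 and 0.11 and every interval but that of *Cnot6* at 3′ ends includes 0.

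Genes of the circadian clock, to which *Ccrn4l* is linked by its rhythmic expression, held 2 HuD windows in all. Of 24 clock genes, 2 had a window, *Arntl*, a core activator of the clock, with 17 reads and *Csnk1e*, a kinase of the period proteins, with 20. Both were among the 22 tested in RNA-Seq, a share of 9.09%, and of all protein coding genes tested 1282 of 12947 (9.90%) had a window. Of the 22, 0 passed an adjusted p of 0.05 in total RNA, polysomal RNA, TE or the polysomal to total comparison, and 0 of the 14 tested at 3′ ends. *Per1*, a clock repressor, had 18.6 and 20.0 CPM in total RNA of control cells and 24.0 and 21.8 in Trex-HuD cells. Its groups did not overlap there, as for 15.1% of all genes that were higher and 16.7% that were lower. Its log2 difference was 0.25 ± 0.10 (SE; edgeR, adjusted p = 1), and in polysomal RNA 0.26 ± 0.10 (adjusted p = 0.969), with unadjusted p-values under 0.05 in both. In each, *Per1* was 1 of the 22, beside 1.78% of all genes higher at this threshold in total RNA and 2.29% in polysomal RNA. The other clock gene with an unadjusted p under 0.05 in any comparison was *Clock* itself, 0.24 higher on the log2 scale in polysomal than in total RNA of control cells (edgeR, adjusted p = 0.462). It was 1 of the 22, beside 4.45% of all genes higher at this threshold.

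The NAD(P)(H) genes, which make or regenerate the dinucleotides that nocturnin acts on, had 6 members with a HuD window and few reads at each. Of 19, 6 had 1 window each, all in the 3′ UTR and with 7 to 33 covering reads, and *Aldh1l2* had the most. The 6 were 37.5% of the 16 protein coding members tested in RNA-Seq, beside the 9.90% over all genes, and this difference was not tested. Of the 16 tested in RNA-Seq and POL-Seq and the 13 tested at 3′ ends, 0 passed an adjusted p of 0.05 in any comparison. *Aldh1l2*, a mitochondrial folate enzyme that forms NADPH, had 88.4 and 90.0 CPM in total RNA of control cells and 108.7 and 103.9 in Trex-HuD cells (log2 difference 0.25 ± 0.08, edgeR, adjusted p = 1). *Idh2*, the mitochondrial NADP-dependent isocitrate dehydrogenase, had 146.8 and 150.8 against 125.7 and 132.6 CPM (-0.21 ± 0.08, adjusted p = 1), and at 3′ ends -0.29 (edgeR, adjusted p = 0.838). Neither pair of groups overlapped in total RNA, as for 15.1% of all genes that were higher and 16.7% that were lower. *Aldh1l2* and *Idh2* were among the 1.78% and 0.865% of genes with an unadjusted p under 0.05. Between polysomal and total RNA of control cells, unadjusted p-values under 0.05 were found for *Nadk2* (0.23), *Nnt* (0.23), *Aldh1l2* (0.21) and *Nadsyn1* (-0.36, on the log2 scale), 4 of 16 beside 4.45% higher and 6.25% lower over all genes, all with adjusted p-values of 0.462 or 0.464 by edgeR.

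*Ccrn4l* varied little over the 8 RNA-Seq and POL-Seq libraries, with an SD of 0.10 of its log2 CPM, smaller than that of all but 23.4% of genes. The 5 genes whose log2 CPM followed it most closely were *Trit1*, a tRNA isopentenyltransferase (Pearson r = 0.981), *Trim39*, a RING-type ubiquitin ligase (0.975), *Ankrd16* (0.974), *Dnase1l2*, a DNase (0.973), and *Pced1a* (0.969). Over 8 libraries that differ in depth, fraction and line, 135 of 14905 genes had an r above 0.9. These names thus describe the libraries and were chosen by this measure alone.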

How the data were processed

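NSC-34 cells expressing tagged HuD and control cells were profiled by crosslinking (CRAC) and by sequencing of total RNA, polysomal RNA and mRNA 3′ ends, in samples that the study calls biological replicates. Per the authors, CRAC reads were collapsed and aligned to GRCm38.p4 with TopHat2 2.0.14. Deletion sites were kept above a score threshold of their binding matrix, with at least 3 deletions and 6 covering reads over the pooled replicates. The deposited CRAC table holds coverage and deletions as pooled read counts, a combined p-value and a matrix score per window and transcript. The RNA-Seq, POL-Seq and 3′ end counts were deposited raw, after alignment with STAR 2.5.3a by the authors. In 3′ end data reads starting near known sites were counted.

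CRAC lines were reduced to unique windows and placed on GENCODE vM21 transcripts, where the letters of 2805 of 2868 were found. Printed positions are those of the letters, 2 nt after the listed start on the plus strand. Windows of different genes were matched by their letters with 7 nt on each side, and stretches aligned with blastn 2.17.0. Counts were fitted with edgeR 4.0.16 (TMM, filterByExpr, quasi-likelihood F-test) over all 8 RNA-Seq and POL-Seq libraries, without a block. 3′ end counts were summed over unique sites per gene and fitted over 6 libraries. P-values were adjusted by Benjamini-Hochberg over 14906 and 9621 genes. CPM were TMM scaled, FPKM used the union of exons, and log2 CPM used a prior count of 2. Deviations of same-numbered 3′ end libraries correlated with r of 0.414, 0.678 and 0.534, a pairing read from the data and not from the labels. The main 3′ end fit did not use it. Values at 3′ ends are without a block unless the block is named. Alternatives were other scaling, no filter, DESeq2 1.42.0, left-out libraries and subsets of libraries.

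*Ccrn4l* and the gene lists were chosen with earlier results of these data known. Genes named were the EEP family, *Elavl4*, the next 3 genes by coverage and by windows, the neighbouring gene, the 5 closest in profile, and list members with an unadjusted p under 0.05. Windows named were the 5 with the most coverage, the 5 with the most deletions, the first, the last and those highest in control reads.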

Additional observations from a re-analysis of the deposited data

How the results depend on the processing

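No alternative moved a *Ccrn4l* test past an adjusted p of 0.05. Outside leaving out a library, all 24 alternatives over the 5 tests kept the direction, with a lowest adjusted p of 0.281. Leaving out 1 library changed the sign in 10 of 26 edgeR fits, since the differences lie near 0; where this left a group with 1 library, it was assumed to vary like the other groups. The log2 differences then ran from -0.0303 to 0.0866 in total RNA, -0.0424 to 0.0464 in polysomal RNA, -0.0834 to 0.0335 in TE, -0.198 to -0.0933 between polysomal and total RNA of control cells, and -0.149 to 0.333 at 3′ ends. In RNA-Seq and POL-Seq, with 2 numbers per group, deviations of same-numbered libraries correlated with r of 0.24 to 0.494, and the labels tie the numbers to no shared batch. With the replicate block the *Ccrn4l* values were 0.028, 0.003, -0.025 and -0.148 in the order above, and genes called between polysomal and total RNA went from 26 to 41. DESeq2 called 67 there and 35 at 3′ ends against 5. Among the members of the lists, the markers and *Elavl4*, the replicate block changed 1 call, that of *Elavl4* at 3′ ends, and none of *Ccrn4l*.

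Coverage of *Ccrn4l* was 12491 with overlapping windows merged, 13109 at windows with the authors' p-value under 0.05, and 13376 without the most covered window, each in place 1 among protein coding genes. By its most covered window alone it had 1323 reads and place 4, and by deletions 466 and place 1. In an alternative chosen after seeing the data, only windows with no listed counterpart in another gene, it had 682 reads and place 42. Requiring 0, 4 or 12 nt on each side gave 44, 39 and 37 matched windows. Clusters numbered 9 at gaps of at most 100 nt. Without *Ccrn4l*, also chosen after seeing the data, the 5′ UTR share was 0.62% and the 3′ UTR share 93.56%. Use of alternative 3′ ends was not run, as 1 site is listed.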
